A study of Homo sapiens with 10 samples.

Results

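The 37 genes of the human mitochondrial genome were followed in the bulk RNA sequencing of TREx293 cells, human embryonic kidney cells built so that a construct at a single recombination site is expressed under doxycycline. They were taken as every row of the deposited count table whose symbol begins with MT-, which gave 13 protein genes, 2 ribosomal RNA genes and 22 transfer RNA genes among 58216 gene identifiers. The 10 libraries fall into 5 groups of 2: lines carrying the MN1-BEND2 fusion, the MN1-CXXC5 fusion, MN1 or BEND2, and the CTRL line, whose genotype is labelled WT, where the others are labelled knockin. The constructs were HA-tagged, kept in stable lines under blasticidin and hygromycin, and induced with doxycycline, as the labels' protocols give it. The labels do not say whether CTRL cells received doxycycline, nor whether a line came from 1 clone. They also do not say that the paired libraries of a line are from separate cultures. The p-values therefore measure a spread between libraries that may be technical.

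Human mitochondrial DNA is a small circle transcribed from both strands into long precursors. Most protein genes and both ribosomal RNAs are read from the heavy-strand promoter, and the precursors are cut apart mainly at the transfer RNAs that lie between them. MT-ND6 and a minority of the transfer RNAs are the sense products of the opposite transcript. The proteins are core subunits of respiratory complexes I, III and IV and of the ATP synthase (complex V), and the protein factors that transcribe, process and translate these RNAs come from nuclear genes.

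The transfer RNA genes with the highest levels are shown first, since they gave 80.8% to 87.9% of all transfer RNA counts (the first 3), and because MT-TL1 had the largest called rise over CTRL of any transfer RNA. Sequences are GENCODE v29 transcripts on GRCh38, written 5′ to 3′ on the gene's own strand, with the anticodon in capitals. MT-TP (chrM:15956-16023, minus strand), MT-TC (chrM:5761-5826, minus strand) and MT-TN (chrM:5657-5729, minus strand) encode the transfer RNAs for proline, cysteine and asparagine, and MT-TL1 (chrM:3230-3304, plus strand) encodes 1 of the leucine transfer RNAs.
MT-TP: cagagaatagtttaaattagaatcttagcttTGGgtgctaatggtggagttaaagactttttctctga
MT-TC: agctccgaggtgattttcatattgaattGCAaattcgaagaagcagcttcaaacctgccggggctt
MT-TN: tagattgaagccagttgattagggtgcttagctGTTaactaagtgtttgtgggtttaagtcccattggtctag
MT-TL1: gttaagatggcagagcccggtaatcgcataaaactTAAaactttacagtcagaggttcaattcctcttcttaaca

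Neighbouring genes share bases, which bears on what a count can show. MT-ATP8 and MT-ATP6 overlap by 46 bases (chrM:8527-8572, plus strand), shown here with the start codon of MT-ATP6 in capitals, and MT-ND4L and MT-ND4 overlap by 7 bases, which are in capitals in the stretch chrM:10750-10776.
MT-ATP8 and MT-ATP6: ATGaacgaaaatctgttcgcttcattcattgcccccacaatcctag
MT-ND4L and MT-ND4: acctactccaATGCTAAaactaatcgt

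Library totals were 15914424 to 26799613 counts. The genes placed in the constructs were highest in the lines whose labels name them. MN1 stood at 290.2 and 290.4 depth-scaled counts (CPM) in MN1-BEND2, 128 and 127 in MN1-CXXC5 and 328 and 324 in MN1 cells. The other lines had 3.80 to 5.38 CPM of it. BEND2 stood at 393 and 407 CPM in MN1-BEND2 and 389 and 399 CPM in BEND2 cells, and at most 0.573 CPM elsewhere. CXXC5 stood at 55.2 and 61.8 CPM in MN1-CXXC5 cells. It was also called higher in MN1-BEND2 cells, at 22.9 and 21.9 CPM against 13.6 and 13.4 CPM in CTRL cells. In MN1 cells it stood lower than in CTRL cells, at 8.35 and 9.09 CPM. A list of 10 salivary and squamous epithelium markers summed to 83.2 CPM in MN1 replicate 1 and 92.7 CPM in CTRL replicate 1, against 0.312 to 2.53 CPM in the other 8 libraries. The 8 blood markers summed to 0.854 to 9.00 CPM, highest in the same 2 libraries. Most of that height was LYZ, at 6.35 CPM in MN1 replicate 1 and 5.82 CPM in CTRL replicate 1, and at most 0.0732 CPM elsewhere. PTPRC, another blood marker, was instead highest in MN1-BEND2 replicate 1 (1.27 CPM) and MN1-CXXC5 replicate 1 (1.12 CPM). The 6 fibroblast and endothelial markers summed to 0.887 to 2.13 CPM. Counts of members without these 2 libraries are given below beside each comparison with CTRL. The part of the markers in the results was not tested.

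Mitochondrially encoded genes held between 4.56% and 5.91% of all counts. Their share was 5.52 and 5.79% in MN1-BEND2, 5.58 and 5.91% in MN1-CXXC5, 4.56 and 5.14% in MN1, 4.86 and 5.11% in BEND2 and 4.59 and 4.96% in CTRL cells. All 4 fusion libraries lay above the other 6, and the MN1 and BEND2 libraries overlapped those of CTRL. In bulk RNA a change in how many cells hold a transcript cannot be told apart from a change in how much of it each cell holds. The protein genes alone took 4.57 and 4.82% in MN1-BEND2, 4.64 and 4.92% in MN1-CXXC5, 3.89 and 4.42% in MN1, 4.08 and 4.32% in BEND2 and 3.72 and 4.06% in CTRL cells. Ribosomal RNAs took 0.933 and 0.956% in MN1-BEND2, 0.927 and 0.968% in MN1-CXXC5, 0.663 and 0.707% in MN1, 0.757 and 0.773% in BEND2 and 0.849 and 0.888% in CTRL cells. Here the MN1 and BEND2 libraries were the lowest and did not overlap CTRL. Transfer RNAs took 0.0134% to 0.0222%. With 2 libraries against 2, an exact permutation test of a share cannot give a p below 0.333, and none was run.

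**Figure D1:**
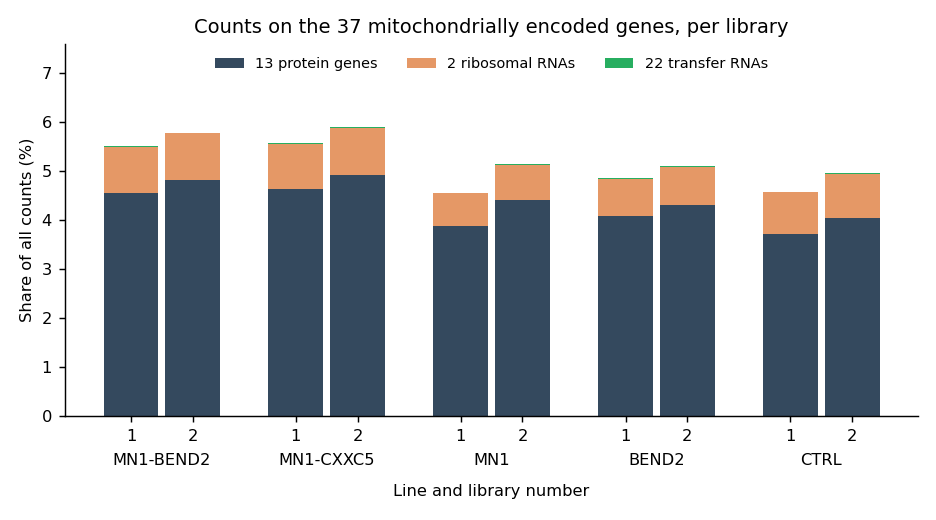
Share of all counts (%) on the mitochondrially encoded protein genes, ribosomal RNAs and transfer RNAs, stacked in a bar for each library, with the lines side by side and CTRL at the right. The 4 fusion libraries reach 5.52% to 5.91% and the other 6 stay at 4.56% to 5.14%; the transfer RNA band is barely visible.

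Levels of single members spanned several orders of magnitude. MT-CO1 (chrM:5904-7445), the catalytic core of cytochrome c oxidase, had the highest mean CPM of any gene in the table, and MT-RNR2, the large ribosomal RNA, ranked 3. Per kilobase of gene and averaged over the 10 libraries, the order was MT-CO1 (8909 CPM per kilobase), MT-CO2 (6916), MT-CO3 (6171), MT-ATP6 (4865), MT-RNR2 (4219.9), MT-ATP8 (3886), MT-ND4L (3881), MT-ND4 (3388), MT-ND3 (3127), MT-RNR1 (1932), MT-ND5 (1913), MT-CYB (1829), MT-ND2 (1670.1), MT-ND1 (1253) and MT-ND6 (1224 CPM per kilobase). MT-ATP8 and MT-ND4L are next to each other in that order and their means differ by less than the spread between libraries. MT-TP reached 1191 CPM per kilobase, close to MT-ND6, MT-TC 586 and MT-TN 436, whereas MT-TL1 stood at 98.5 and the lowest transfer RNA, MT-TW, at 0.956. Whether polyadenylated RNA was selected or ribosomal RNA was removed is not given in the sources used here, so these levels describe what the libraries held.

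Differences between lines were tested for all genes in a single model of the counts (edgeR's quasi-likelihood test, Benjamini-Hochberg adjusted over 18127 genes, called at an adjusted p under 0.05). Each is given as a log2 fold change ± its standard error (SE), followed by the adjusted p. All 13 protein genes and both ribosomal RNAs entered the test, as did 14 transfer RNAs, and 8 transfer RNAs were too low to enter it. Against CTRL, MN1-CXXC5 cells had 11 protein genes higher and 0 lower, both ribosomal RNAs higher, and 4 transfer RNAs higher and 0 lower, where 19.2% of all tested genes were called higher and 25.1% lower (44.3% in all). MN1-BEND2 cells had 9 protein genes higher and 0 lower, 1 ribosomal RNA higher, and 1 transfer RNA higher and 1 lower, where 26.7% of all genes were called higher and 25.2% lower (52% in all). MN1 cells had 3 protein genes higher and 0 lower, 1 ribosomal RNA higher and the other lower, and 2 transfer RNAs lower, where 21.6% of all genes were called higher and 21.4% lower (43% in all). BEND2 cells had 0 protein genes called, 1 ribosomal RNA lower and 0 transfer RNAs called, where 6.71% of all genes were called higher and 7.47% lower (14.2% in all). The median log2 fold change of the 13 protein genes was 0.29 in MN1-BEND2, 0.52 in MN1-CXXC5, 0.11 in MN1 and 0.12 in BEND2 cells, against 0.01, -0.03, 0.00 and 0.00 for all genes tested. These 4 comparisons share the CTRL libraries, so a library of CTRL moves all of them at once.

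Counts of members depended on the fit in all 4 construct lines. Libraries with the same replicate number deviated together, so the fit was repeated with the number as a block. Members called were then 17 in MN1-BEND2 cells (56.6% of all genes), against 12 without the block, and 21 in MN1-CXXC5 cells (50.2% of all genes), against 17. They were 13 in MN1 cells (48.1% of all genes), against 7, and 11 in BEND2 cells (22.9% of all genes), against 1. Under the block 9 protein genes were called higher in BEND2 cells, where 10.9% of all genes were, and 8 in MN1 cells, where 24.2% were. Those in BEND2 cells were MT-CYB (0.18, block adjusted p = 2.44e-06), MT-CO3 (0.18, 2.6e-06), MT-ATP8 (0.50, 0.000293), MT-ND3 (0.16, 0.000483), MT-ND2 (0.12, 0.00122), MT-ATP6 (0.16, 0.00167), MT-CO2 (0.08, 0.00309), MT-ND5 (0.12, 0.00943) and MT-ND6, given below, and MT-TN was lower (-0.19, 0.0413). A log2 fold change printed beside a block adjusted p, here and below, is that of the fit without the block. Leaving out CTRL replicate 1 left 7 members called in MN1-BEND2 cells, where 43.7% of all genes were called, and 11 in MN1-CXXC5 cells, where 34.9% were. Leaving out MN1-BEND2 replicate 2 also left 7 in MN1-BEND2 cells (42.5% of all genes). In MN1 cells, 11 were called without CTRL replicate 2 (33.5% of all genes) and 11 without MN1 replicate 1 (33.3% of all genes). Without both CTRL replicate 1 and MN1 replicate 1, fewer genes were called over the whole table as well. Members called were then 8 in MN1-BEND2 cells (43.8% of all genes), 16 in MN1-CXXC5 cells (35.3%), 10 in MN1 cells (28.5%) and 2 in BEND2 cells (6.6%). The protein genes called, all of them higher, were 6 in MN1-BEND2, 11 in MN1-CXXC5, 5 in MN1 and 0 in BEND2 cells, where 21.6%, 16.8%, 14.2% and 3.03% of all genes were called higher. DESeq2 called 6 members in MN1-BEND2 cells, where it called 38.3% of the genes it gave an adjusted p: MT-RNR1, MT-ND1, MT-CO1, MT-CO2, MT-ND3 and MT-ND4L. Without CTRL replicate 1 and MN1 replicate 1, the calls of MT-ND2, MT-ND5, MT-CO3, MT-TP and MT-TR in MN1-BEND2 cells and of MT-TC in MN1-CXXC5 cells ended. DESeq2 left out MT-TC and MT-TR in MN1-CXXC5 cells and MT-ATP6 and MT-CYB in MN1 cells.

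**Figure D2:**
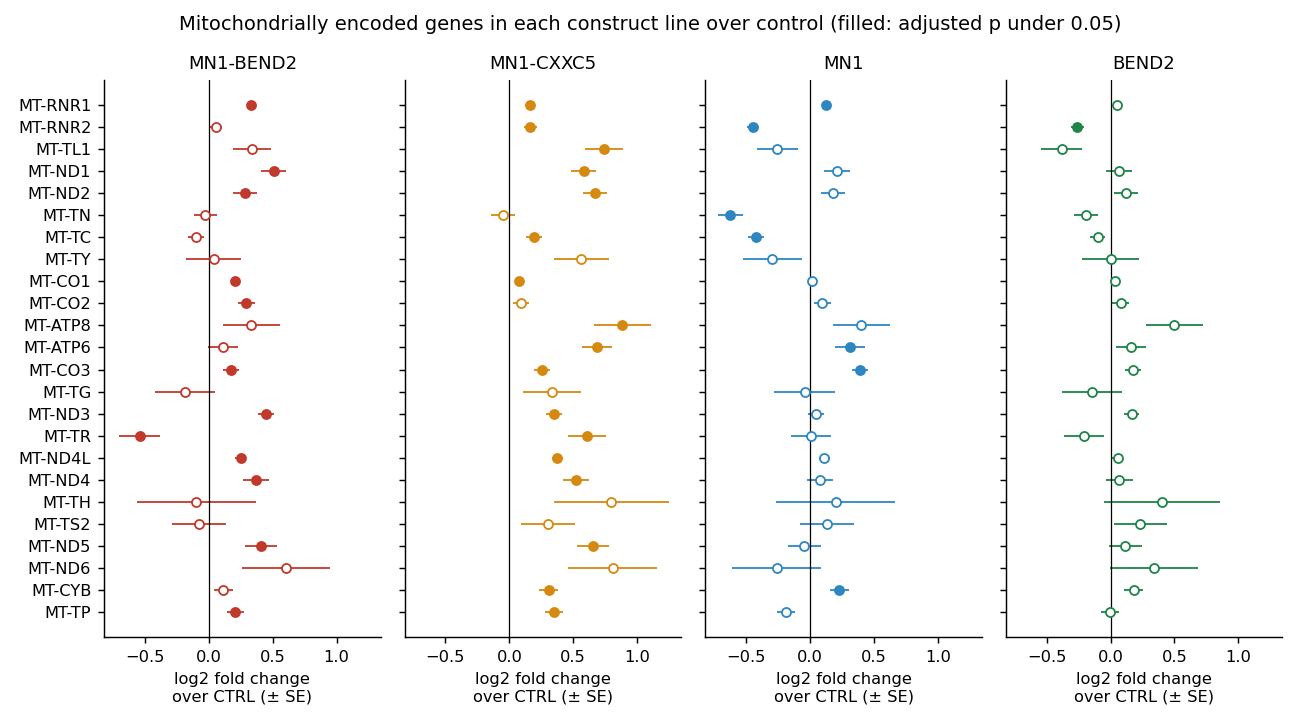
Log2 fold change over CTRL (x axis, ± SE) of the 2 ribosomal RNAs, the 13 protein genes and the 9 transfer RNAs with a mean of at least 1 CPM, in genome order from top to bottom, 1 panel for each construct line, filled where the edgeR adjusted p was under 0.05. Protein genes lie to the right of 0 in both fusion panels, with the highest values for MT-ATP8 (0.88) and MT-ND6 (0.81, open) in MN1-CXXC5 cells, while MT-RNR2 lies left of 0 in the MN1 (-0.45) and BEND2 (-0.26) panels.

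The 7 complex I genes, which encode membrane subunits of NADH dehydrogenase, were higher in both fusion lines for 6 of 7 genes, all except MT-ND6. MT-ND1, a subunit at the quinone-binding end, stood at 1319 and 1463 CPM in MN1-BEND2, 1376 and 1551 in MN1-CXXC5, 1009 and 1254 in MN1, 978 and 1069 in BEND2 and 904 and 1052 CPM in CTRL cells. Both fusion lines lay above CTRL without overlap, while BEND2 and MN1 libraries overlapped CTRL. It rose in MN1-BEND2 cells (0.51 ± 0.10, edgeR adjusted p = 0.000979) and in MN1-CXXC5 cells (0.58 ± 0.10, edgeR adjusted p = 0.000517). MT-ND2, a proton-pumping subunit, stood at 1658 and 1856 CPM in MN1-BEND2, 2169 and 2423 in MN1-CXXC5, 1487 and 1788 in MN1, 1503 and 1633 in BEND2 and 1331 and 1555 CPM in CTRL cells. Its MN1-CXXC5 libraries were the highest of the 10, and it rose there (0.67 ± 0.093, edgeR adjusted p = 0.000115) and in MN1-BEND2 cells (0.28 ± 0.093, edgeR adjusted p = 0.0228). The call in MN1-BEND2 cells ended without CTRL replicate 1 (0.17, adjusted p = 0.201) and without MN1-BEND2 replicate 2 (0.20, adjusted p = 0.175).

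MT-ND4 and MT-ND5, 2 further proton-pumping subunits, moved in the same way. MT-ND5 stood at 3569.8 and 4155 CPM in MN1-BEND2, 4136 and 5024 in MN1-CXXC5, 2461 and 3188 in MN1, 3003 and 3303 in BEND2 and 2620.1 and 3202 CPM in CTRL cells. All fusion libraries were above all others, and MN1 and CTRL libraries overlapped. It rose in MN1-CXXC5 cells (0.65 ± 0.13, edgeR adjusted p = 0.00138) and in MN1-BEND2 cells (0.41 ± 0.13, edgeR adjusted p = 0.0184). MT-ND4 stood at 4922 and 5418 CPM in MN1-BEND2, 5418 and 6069 in MN1-CXXC5, 3729 and 4724 in MN1, 4021 and 4381 in BEND2 and 3644 and 4362 CPM in CTRL cells. It was again highest in the fusion lines, and rose in MN1-CXXC5 cells (0.52 ± 0.11, edgeR adjusted p = 0.00165) and in MN1-BEND2 cells (0.37 ± 0.10, edgeR adjusted p = 0.0108). In MN1-BEND2 cells both calls ended without CTRL replicate 1 (MT-ND5 0.27, adjusted p = 0.159, MT-ND4 0.24, adjusted p = 0.111) and without MN1-BEND2 replicate 2 (MT-ND5 0.29, adjusted p = 0.144, MT-ND4 0.30, adjusted p = 0.083).

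The small complex I subunits MT-ND3 and MT-ND4L complete the heavy-strand members of this complex. MT-ND3 stood at 1266 and 1284 CPM in MN1-BEND2, 1168 and 1211 in MN1-CXXC5, 894 and 1036 in MN1, 1021 and 1072 in BEND2 and 888 and 978 CPM in CTRL cells. Only for this complex I gene were the MN1-BEND2 libraries the 2 highest. It rose in MN1-BEND2 cells (0.45 ± 0.061, edgeR adjusted p = 5.82e-05) and in MN1-CXXC5 cells (0.35 ± 0.061, edgeR adjusted p = 0.000597). MT-ND4L stood at 1199 and 1247 CPM in MN1-BEND2, 1314 and 1352 in MN1-CXXC5, 1059 and 1162 in MN1, 1058 and 1078 in BEND2 and 1003 and 1052 CPM in CTRL cells. Its fusion libraries were above the rest, with a rise in MN1-CXXC5 cells (0.38 ± 0.042, edgeR adjusted p = 2.33e-05) and in MN1-BEND2 cells (0.25 ± 0.042, edgeR adjusted p = 0.000325). Under the replicate block it was also called in MN1 cells, with a log2 fold change of 0.11 without the block and an adjusted p of 0.000257 with it, as were MT-ND1 (0.21, 7.97e-06) and MT-ND2 (0.18, 5.74e-06).

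MT-ND6 (chrM:14149-14673, minus strand), the single protein gene on the other strand, varied most of the protein genes between the 2 libraries of a line. It stood at 614 and 922 CPM in MN1-BEND2, 684 and 1082 in MN1-CXXC5, 269.7 and 573 in MN1, 602 and 674 in BEND2 and 352 and 656 CPM in CTRL cells. Replicate 2 was the higher library in all 5 lines. In MN1-CXXC5 cells both libraries were above both of CTRL, in MN1-BEND2 cells the libraries overlapped those of CTRL. Neither difference was called (0.81 ± 0.34, edgeR adjusted p = 0.0784 in MN1-CXXC5 cells, and 0.61 ± 0.34, edgeR adjusted p = 0.164 in MN1-BEND2 cells). With the replicate block both were called, with adjusted p = 5.11e-06 and 7.97e-05, and BEND2 cells too (0.34, 0.0122). Its count as a share of the 12 heavy-strand protein genes was 1.39 and 1.96% in MN1-BEND2, 1.48 and 2.18% in MN1-CXXC5, 0.695 and 1.29% in MN1, 1.52 and 1.60% in BEND2 and 0.966 and 1.64% in CTRL cells. The annotated ends of MT-ND5 and MT-ND6 are adjacent bases. Whether counting used strand is not given in the sources used here, so reads of long opposite-strand transcripts across this gene cannot be told apart from its own.

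Complex III has a single mitochondrial gene, MT-CYB, for cytochrome b. It stood at 1923 and 2091 CPM in MN1-BEND2, 2184 and 2402 in MN1-CXXC5, 2009.9 and 2336 in MN1, 2006 and 2205 in BEND2 and 1766 and 1942 CPM in CTRL cells. The MN1-CXXC5 libraries lay above CTRL and the MN1-BEND2 libraries overlapped it. It rose in MN1-CXXC5 cells (0.31 ± 0.075, edgeR adjusted p = 0.00566) and in MN1 cells (0.23 ± 0.075, edgeR adjusted p = 0.0272), while MN1-BEND2 cells were not called (0.11 ± 0.075, edgeR adjusted p = 0.228, or adjusted p = 6.14e-05 with the replicate block). The call in MN1-CXXC5 cells ended without CTRL replicate 1 (0.24, adjusted p = 0.0592) and without MN1-CXXC5 replicate 2 (0.24, adjusted p = 0.0613). That in MN1 cells ended without CTRL replicate 1 (0.16, adjusted p = 0.195) and without MN1 replicate 2 (0.12, adjusted p = 0.292).

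Complex IV, cytochrome c oxidase, had a different highest line for its core subunits. MT-CO1, the subunit that holds the site of oxygen reduction, stood at 15238 and 15028 CPM in MN1-BEND2, 13925 and 13737 in MN1-CXXC5, 13108 and 13346 in MN1, 13156 and 13631 in BEND2 and 13128 and 13086 CPM in CTRL cells. The MN1-BEND2 libraries were the 2 highest, and the gene rose there (0.21 ± 0.021, edgeR adjusted p = 5.77e-06). The rise in MN1-CXXC5 cells was small (0.08 ± 0.021, edgeR adjusted p = 0.0109) and ended without CTRL replicate 1 (0.08, adjusted p = 0.0626), without CTRL replicate 2 (0.07, adjusted p = 0.0784), without MN1-CXXC5 replicate 1 (0.07, adjusted p = 0.0917), with library totals in place of TMM (0.04, adjusted p = 0.177) and with no filter (0.07, adjusted p = 0.138).

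MT-CO2, the subunit that takes electrons from cytochrome c, stood at 5142 and 5554 CPM in MN1-BEND2, 4496 and 4806 in MN1-CXXC5, 4379.5 and 4965 in MN1, 4436 and 4797 in BEND2 and 4133 and 4600.2 CPM in CTRL cells. Only MN1-BEND2 libraries cleared both of CTRL, and the gene rose there (0.29 ± 0.066, edgeR adjusted p = 0.00261). In MN1-CXXC5 cells it was not called (0.09 ± 0.066, edgeR adjusted p = 0.291), although the replicate block gave adjusted p = 0.000345, and 0.000209 in MN1 cells (0.10). MT-CO3, the third core subunit, stood at 4558 and 4894 CPM in MN1-BEND2, 4858 and 5181 in MN1-CXXC5, 5136 and 5872 in MN1, 4573 and 4916 in BEND2 and 4015 and 4375 CPM in CTRL cells. Its mean was highest in MN1 cells, whose libraries overlapped those of MN1-CXXC5, and no construct library overlapped CTRL. It rose in MN1 cells (0.39 ± 0.063, edgeR adjusted p = 0.000349), in MN1-CXXC5 cells (0.26 ± 0.063, edgeR adjusted p = 0.00552) and in MN1-BEND2 cells (0.17 ± 0.063, edgeR adjusted p = 0.038). The MN1-BEND2 call ended without CTRL replicate 1 (0.11, adjusted p = 0.266), without MN1-BEND2 replicate 2 (0.12, adjusted p = 0.243) and with offsets for GC content and length (0.16, adjusted p = 0.093). The MN1-CXXC5 call ended without CTRL replicate 1 (0.20, adjusted p = 0.0614) and without MN1-CXXC5 replicate 2 (0.21, adjusted p = 0.0545), and the MN1 call held in all 19 alternatives.

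Complex V, the ATP synthase, set MN1-CXXC5 cells apart. MT-ATP6, a subunit of the proton channel, stood at 2799.6 and 3121 CPM in MN1-BEND2, 4127 and 4692 in MN1-CXXC5, 2959 and 3841 in MN1, 2897 and 3222 in BEND2 and 2484 and 2991 CPM in CTRL cells. The MN1-CXXC5 libraries were above the other 8, and the MN1-BEND2, MN1 and BEND2 libraries overlapped CTRL. It rose in MN1-CXXC5 cells (0.69 ± 0.12, edgeR adjusted p = 0.000456) in all 19 alternatives. In MN1 cells the rise (0.31 ± 0.12, edgeR adjusted p = 0.0461) ended in 7 of 19, among them without CTRL replicate 1 (0.18, adjusted p = 0.311), without MN1 replicate 2 (0.11, adjusted p = 0.485), without BEND2 replicate 1 (0.31, adjusted p = 0.0569) and without BEND2 replicate 2 (0.31, adjusted p = 0.0568). In MN1-BEND2 cells it was not called (0.11 ± 0.12, edgeR adjusted p = 0.446, or adjusted p = 0.00732 with the replicate block).

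MT-ATP8, which shares the 46 bases shown above with MT-ATP6, stood at 663 and 819.5 CPM in MN1-BEND2, 994 and 1176 in MN1-CXXC5, 575 and 979 in MN1, 799 and 865 in BEND2 and 462 and 713 CPM in CTRL cells. Its MN1-CXXC5 libraries were again the 2 highest, and the CTRL libraries lay far apart. MT-ATP8 rose in MN1-CXXC5 cells (0.88 ± 0.22, edgeR adjusted p = 0.00706), a call ended without CTRL replicate 1 (0.60, adjusted p = 0.0661) and without MN1-CXXC5 replicate 2 (0.75, adjusted p = 0.0509). With the replicate block it was also called in MN1-BEND2 cells (adjusted p = 0.00331) and in MN1 cells (adjusted p = 0.00158). The log2 fold changes there were 0.33 and 0.40 in the fit without the block. Of the counts on the 13 protein genes, complex V took 7.72 and 8.23% in MN1-BEND2, 10.9 and 11.6% in MN1-CXXC5, 9.04 and 10.7% in MN1, 9.23 and 9.54% in BEND2 and 8.02 and 9.13% in CTRL cells. Complex IV took 49.7 and 46.8% in MN1-CXXC5 cells, below the 53.2% to 57.9% of the other 8 libraries, and complex I took 34.7 and 36.9% there, above the 27.9% to 34.2% of the others. Unlike the single genes, these shares do not depend on the scaling between libraries.

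The ribosomal RNAs, MT-RNR1 of the small and MT-RNR2 of the large mitochondrial ribosomal subunit, changed unequally in the lines. MT-RNR2 (chrM:1671-3229) stood at 7066 and 7384 CPM in MN1-BEND2, 7493 and 8105 in MN1-CXXC5, 4868 and 5333 in MN1, 5694 and 5934 in BEND2 and 6732 and 7179 CPM in CTRL cells. The MN1 libraries were the lowest, then those of BEND2, and neither overlapped CTRL. It fell in MN1 cells (-0.45 ± 0.049, edgeR adjusted p = 1.78e-05) in all 19 alternatives, and in BEND2 cells (-0.26 ± 0.049, edgeR adjusted p = 0.00518), where the call ended without BEND2 replicate 1 (-0.23, adjusted p = 0.06) and without CTRL replicate 2 (-0.21, adjusted p = 0.0525). In MN1-CXXC5 cells it rose (0.17 ± 0.049, edgeR adjusted p = 0.0157), a call ended without CTRL replicate 1 (0.12, adjusted p = 0.144) and without MN1-CXXC5 replicate 2 (0.11, adjusted p = 0.163). In MN1-BEND2 cells it was called only with the replicate block (adjusted p = 0.01) and with the GC content and length offsets (0.16, adjusted p = 0.0121; without them 0.05 ± 0.049, edgeR adjusted p = 0.376).

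MT-RNR1 (chrM:648-1601) stood at 2103 and 2109.8 CPM in MN1-BEND2, 1869 and 1876 in MN1-CXXC5, 1794 and 1866 in MN1, 1729 and 1733 in BEND2 and 1647 and 1702 CPM in CTRL cells. The libraries of a line lay close together. The level was lowest in CTRL, and rose in MN1-BEND2 cells (0.33 ± 0.027, edgeR adjusted p = 8.72e-07), in MN1-CXXC5 cells (0.16 ± 0.027, edgeR adjusted p = 0.000485) and in MN1 cells (0.13 ± 0.027, edgeR adjusted p = 0.0024), each in all 19 alternatives. BEND2 cells were not called (0.05 ± 0.027, edgeR adjusted p = 0.288). The ratio of MT-RNR2 to MT-RNR1 counts was 3.36 and 3.50 in MN1-BEND2, 4.01 and 4.32 in MN1-CXXC5, 2.71 and 2.86 in MN1, 3.29 and 3.42 in BEND2 and 4.09 and 4.22 in CTRL cells. MN1-CXXC5 and CTRL libraries overlapped, and the other 3 lines lay below both. Relative to the protein genes, ribosomal RNA counts were 0.204 and 0.198 in MN1-BEND2, 0.200 and 0.197 in MN1-CXXC5, 0.170 and 0.160 in MN1, 0.185 and 0.179 in BEND2 and 0.228 and 0.219 in CTRL cells. Every construct library lay below both of CTRL.

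**Figure D3:**
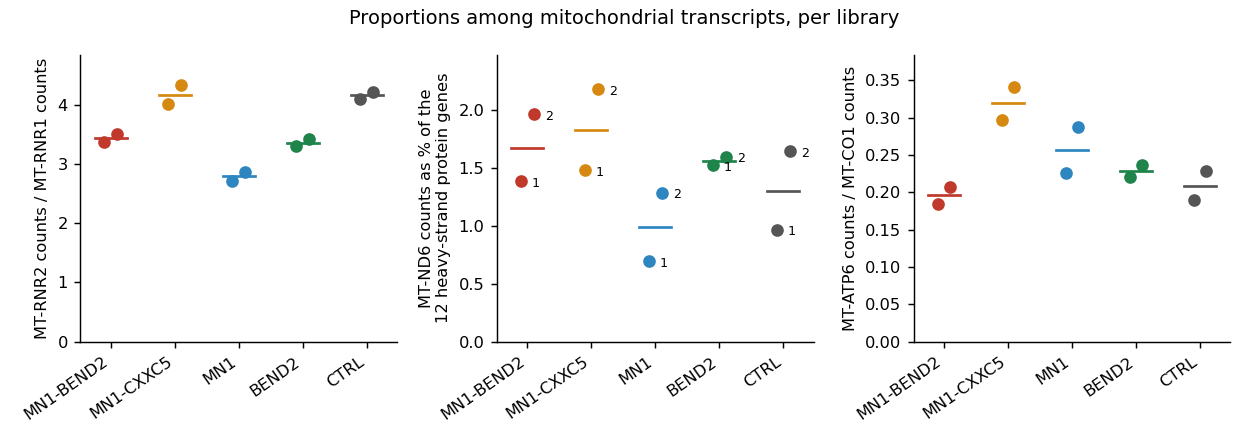
Proportions that do not depend on scaling between libraries: MT-RNR2 over MT-RNR1 counts, MT-ND6 counts as a percentage of the 12 heavy-strand protein genes (with library numbers), and MT-ATP6 over MT-CO1 counts, a point for each library and a bar at the mean of each line. The first panel is lowest in MN1 cells (2.71 and 2.86), the second is higher in library 2 of every line, and the third is highest in MN1-CXXC5 cells (0.296 and 0.342).

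Among the 22 transfer RNA genes, 9 had a mean of at least 1 CPM. Counts per gene do not separate mature transfer RNAs from unprocessed precursors. As for MT-ND6, reads of opposite-strand transcripts cannot be told apart from a gene's own, also for the minus-strand MT-TP, MT-TC and MT-TN. MT-TP, the last annotated gene before the control region, stood at 86.2 and 90.1 CPM in MN1-BEND2, 93.5 and 101 in MN1-CXXC5, 61.4 and 72.6 in MN1, 74.4 and 78.4 in BEND2 and 73.1 and 79.5 CPM in CTRL cells. Its MN1-CXXC5 libraries were the highest and its MN1 libraries the lowest. It rose in MN1-CXXC5 cells (0.35 ± 0.069, edgeR adjusted p = 0.00152) and in MN1-BEND2 cells (0.21 ± 0.068, edgeR adjusted p = 0.023), where the call ended without CTRL replicate 1 (0.15, adjusted p = 0.161) and without MN1-BEND2 replicate 2 (0.17, adjusted p = 0.138) and the GC content and length offsets gave 0.42. In MN1 cells its log2 fold change was -0.19 (edgeR adjusted p = 0.0511, or 0.000893 with the replicate block).

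MT-TN and MT-TC, which lie 31 bases apart on the minus strand, fell in MN1 cells. MT-TN stood at 33.0 and 36.6 CPM in MN1-BEND2, 33.3 and 35.6 in MN1-CXXC5, 21.8 and 24.5 in MN1, 31.2 and 31.2 in BEND2 and 31.6 and 39.3 CPM in CTRL cells. Its MN1 libraries were the 2 lowest (-0.62 ± 0.10, edgeR adjusted p = 0.000299). MT-TC stood at 35.9 and 39.7 CPM in MN1-BEND2, 44.8 and 48.0 in MN1-CXXC5, 29.9 and 30.6 in MN1, 36.5 and 39.8 in BEND2 and 39.8 and 41.4 CPM in CTRL cells. Its MN1 libraries were again the 2 lowest (-0.42 ± 0.063, edgeR adjusted p = 0.000197). Both falls held in all 19 alternatives. MT-TC rose in MN1-CXXC5 cells (0.19 ± 0.06, edgeR adjusted p = 0.0209), a call ended without CTRL replicate 1 (0.16, adjusted p = 0.113), without MN1-CXXC5 replicate 2 (0.14, adjusted p = 0.175) and with the GC content and length offsets (0.09, adjusted p = 0.468).

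MT-TL1, which directly follows MT-RNR2, stood at 7.97 and 8.85 CPM in MN1-BEND2, 9.81 and 12.5 in MN1-CXXC5, 6.40 and 4.81 in MN1, 5.27 and 4.92 in BEND2 and 6.55 and 6.79 CPM in CTRL cells. MT-TL1 rose in MN1-CXXC5 cells (0.74 ± 0.15, edgeR adjusted p = 0.00162) in all 19 alternatives. MT-TR, the arginine transfer RNA gene between MT-ND3 and MT-ND4L, stood at 2.69 and 3.33 CPM in MN1-BEND2, 6.86 and 6.59 in MN1-CXXC5, 4.34 and 4.54 in MN1, 4.03 and 3.55 in BEND2 and 4.89 and 3.97 CPM in CTRL cells. Its MN1-CXXC5 libraries were the highest and its MN1-BEND2 libraries the lowest. MT-TR rose in MN1-CXXC5 cells (0.61 ± 0.15, edgeR adjusted p = 0.00603), a call ended without CTRL replicate 2 (0.46, adjusted p = 0.0645). It fell in MN1-BEND2 cells (-0.54 ± 0.16, edgeR adjusted p = 0.0132), a call ended without CTRL replicate 1 (-0.39, adjusted p = 0.108), without MN1-BEND2 replicate 1 (-0.41, adjusted p = 0.105) and with the GC content and length offsets (-0.33, adjusted p = 0.115).

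The other 4 transfer RNA genes above 1 CPM, MT-TG, MT-TH, MT-TS2 and MT-TY, ranged between 1.06 and 8.99 CPM and were not called against CTRL in any line. MT-TH, the histidine transfer RNA gene after MT-ND4, stood at 2.06 and 4.63 CPM in MN1-BEND2, 3.72 and 8.99 in MN1-CXXC5, 2.78 and 5.61 in MN1, 4.17 and 5.67 in BEND2 and 2.76 and 4.49 CPM in CTRL cells, with replicate 2 the higher library in every line. The replicate block called it in MN1-CXXC5 cells (adjusted p = 0.00137), as it did MT-TY (adjusted p = 0.0382). MT-TA, MT-TD, MT-TE, MT-TI and MT-TK entered the test at means below 1 CPM and were not called against CTRL. MT-TF, MT-TV, MT-TQ, MT-TM, MT-TW, MT-TS1, MT-TL2 and MT-TT did not enter it, with 13 (MT-TW) to 68 (MT-TL2) counts over all 10 libraries. A count of 0 in 1 library allows a level of up to 0.112 to 0.189 CPM (3 counts, counting error only).

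The fusions were also set against their unfused parts. MN1-BEND2 cells against MN1 cells had 7 protein genes higher and 1 lower, both ribosomal RNAs higher, and 4 transfer RNAs higher and 1 lower, where 23.2% of all genes were called higher and 23.2% lower (46.3% in all). MT-RNR2 differed by 0.50 ± 0.049, edgeR adjusted p = 4.43e-06, MT-ND3 by 0.40 ± 0.061, edgeR adjusted p = 0.00018 and MT-TN by 0.59 ± 0.10, edgeR adjusted p = 0.00035, while MT-CO3 was lower in the fusion (-0.22 ± 0.063, edgeR adjusted p = 0.0129), a call ended without MN1 replicate 2 (-0.12, adjusted p = 0.162) and without MN1-BEND2 replicate 1 (-0.17, adjusted p = 0.106). The count of 15 members became 9 without MN1-BEND2 replicate 2 (36.6% of all genes) and 19 with the replicate block (51.7% of all genes), which called 9 protein genes higher and 3 lower, where 25.8% of all genes were called higher and 25.9% lower. The balance of the protein genes turned round without CTRL replicate 1 and MN1 replicate 1, the libraries with the highest marker sums. Then 2 protein genes were called higher and 4 lower, where 17.7% of all genes were called higher and 19.5% lower (37.3% in all). The higher genes were MT-CO1 (0.17, adjusted p = 0.00131) and MT-ND3 (0.29, adjusted p = 0.000255), and the lower ones MT-CO3 (-0.32, adjusted p = 0.000725), MT-ATP6 (-0.39, adjusted p = 0.00318), MT-CYB (-0.23, adjusted p = 0.0208) and MT-ATP8 (-0.41, adjusted p = 0.0144). Without MN1 replicate 1 alone the log2 fold changes were close to these (MT-CO1 0.17, MT-ND3 0.29, MT-CO3 -0.32, MT-ATP6 -0.39, MT-CYB -0.23 and MT-ATP8 -0.41). In both fits MN1 cells keep only replicate 2, their higher library for all 13 protein genes (median log2 difference over replicate 1 of 0.27). CTRL replicate 1 belongs to neither line compared, and in MN1 replicate 1 the markers cannot be told apart from the replicate number. Both ribosomal RNAs were called higher, and 4 transfer RNAs higher and 1 lower, with and without those 2 libraries. MN1-BEND2 cells against BEND2 cells had 6 protein genes and both ribosomal RNAs higher and 2 transfer RNAs higher, with 0 lower, where 21.7% of all genes were called higher and 21.9% lower (43.6% in all). MT-RNR1 (0.28 ± 0.027, edgeR adjusted p = 4.97e-06), MT-CO1 (0.18 ± 0.021, edgeR adjusted p = 3.36e-05) and MT-TL1 (0.72 ± 0.15, edgeR adjusted p = 0.00246) were among them. With the replicate block 8 protein genes were higher and 1 lower, both ribosomal RNAs higher, and 2 transfer RNAs higher and 1 lower. Of the 18127 genes tested, 4480 were then called higher and 4502 lower.

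MN1-CXXC5 cells against MN1 cells had 9 protein genes higher and 0 lower, MT-RNR2 higher, and 6 transfer RNAs higher and 0 lower, where 23.3% of all genes were called higher and 25.5% lower (48.8% in all). MT-RNR2 was higher by 0.61 ± 0.049, edgeR adjusted p = 8.79e-07, MT-TC by 0.62 ± 0.064, edgeR adjusted p = 7.58e-06, MT-TP by 0.54 ± 0.071, edgeR adjusted p = 5.78e-05 and MT-ND5 by 0.70 ± 0.13, edgeR adjusted p = 0.000713. MT-RNR1, in contrast, was not called (0.03 ± 0.027, edgeR adjusted p = 0.354), and neither was MT-CO2 (-0.01 ± 0.066, edgeR adjusted p = 0.946). MT-ND6 had the largest rise among protein genes (1.07 ± 0.35, edgeR adjusted p = 0.024), a call ended without MN1 replicate 1 (0.65, adjusted p = 0.163) and without MN1-CXXC5 replicate 2 (0.70, adjusted p = 0.194).

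The fusions were set against each other directly. MN1-BEND2 cells against MN1-CXXC5 cells had 2 protein genes higher and 4 lower, MT-RNR1 higher, and 4 transfer RNAs lower, where 31.1% of all genes were called higher and 27.5% lower (58.6% in all). MT-ATP6 was lower in MN1-BEND2 cells (-0.57 ± 0.12, edgeR adjusted p = 0.00101), as were MT-ND2 (-0.39 ± 0.093, edgeR adjusted p = 0.0035), MT-TR (-1.15 ± 0.16, edgeR adjusted p = 4.77e-05) and MT-TC (-0.29 ± 0.06, edgeR adjusted p = 0.00123). MT-CO1 was higher (0.13 ± 0.021, edgeR adjusted p = 0.000215), as were MT-RNR1 (0.17 ± 0.027, edgeR adjusted p = 0.000181) and MT-CO2 (0.20 ± 0.066, edgeR adjusted p = 0.0199), of which MT-CO2 was not called without MN1-BEND2 replicate 2 (0.14, adjusted p = 0.15) or without MN1-CXXC5 replicate 1 (0.15, adjusted p = 0.139). MT-ND1 did not pass the test (-0.07 ± 0.10, edgeR adjusted p = 0.556, or adjusted p = 0.0349 with the replicate block), while MT-ND4L was called lower (-0.12 ± 0.042, edgeR adjusted p = 0.0242) but not without MN1-BEND2 replicate 1 (-0.09, adjusted p = 0.162) or MN1-CXXC5 replicate 2 (-0.11, adjusted p = 0.129), and it stood at 0.0067 with the GC content and length offsets. With the block MT-RNR2 (-0.11, adjusted p = 1.55e-05), MT-ND5 (-0.25, adjusted p = 1.83e-06) and MT-ATP8 (-0.55, adjusted p = 2.33e-05) were called lower and MT-ND3 higher (0.10, adjusted p = 0.00712). The 11 members called became 21 with the replicate block (62.3% of all genes), 7 without MN1-CXXC5 replicate 2 (49.1%), 17 without MN1 replicate 2 (56.4%), 18 without MN1 replicate 1 (56.9%) and 20 without both CTRL replicate 1 and MN1 replicate 1 (57.2%).

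Differences between the 2 libraries of a line had a pattern of their own among these genes. Of the 13 protein genes, replicate 2 was the higher library for 12 in MN1-BEND2 cells, 12 in MN1-CXXC5 cells, 13 in MN1 cells, 13 in BEND2 cells and 12 in CTRL cells. The median log2 difference of replicate 2 over replicate 1 was 0.14, 0.16, 0.27, 0.12 and 0.22 in the same order of lines, against medians between -0.0015 and 0.0070 for all genes tested. Among the protein genes MT-ND6 had the widest difference in all 5 lines, up to 1.09 in MN1 cells and 0.90 in CTRL cells. The low transfer RNA gene MT-TH differed more than MT-ND6 in 3 lines, by 1.17 in MN1-BEND2, 1.27 in MN1-CXXC5 and 0.44 in BEND2 cells, against 0.59, 0.66 and 0.16 for MT-ND6. MT-RNR1 differed by 0.00257 to 0.057. The labels do not say what a replicate number stands for.

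Nuclear copies of mitochondrial genes can take or give reads. The table holds 405 symbols of such copies, of which 4 had a mean of at least 1 CPM. MTATP6P1 (GRCh38 chromosome 1, 633696 to 634376) matches MT-ATP6 at 671 of 681 bases, and the stretch below holds 1 difference, which is in capitals, to show how alike the copies are. The upper line is chrM:8830-8889 and the lower chr1:633999-634058, both on the plus strand.
MT-ATP6: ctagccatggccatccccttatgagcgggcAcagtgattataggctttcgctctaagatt
MTATP6P1: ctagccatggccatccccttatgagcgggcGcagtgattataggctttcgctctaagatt

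MTATP6P1 stood at 474 and 496 CPM in MN1-BEND2, 594 and 630.0 in MN1-CXXC5, 511 and 572 in MN1, 434 and 472 in BEND2 and 403 and 428 CPM in CTRL cells. Its mean was 501 CPM against 3313 CPM for MT-ATP6. Its MN1-CXXC5 libraries were the highest of the 10, and it rose there (0.56 ± 0.058, edgeR adjusted p = 1.17e-05), in MN1 cells (0.38 ± 0.058, edgeR adjusted p = 0.000216) and in MN1-BEND2 cells (0.22 ± 0.058, edgeR adjusted p = 0.00608). The MN1-BEND2 call ended without CTRL replicate 1 (0.18, adjusted p = 0.0589) and without MN1-BEND2 replicate 2 (0.19, adjusted p = 0.0539). MTND2P28 (98.4% identical to MT-ND2) rose in MN1-CXXC5 cells (0.65 ± 0.069, edgeR adjusted p = 1.37e-05), where MT-ND2 did. It was not called in MN1-BEND2 cells (0.17 ± 0.069, edgeR adjusted p = 0.0643), where MT-ND2 was called. It was called in MN1 cells too (0.20 ± 0.07, edgeR adjusted p = 0.0372), though in 10 of 19 alternatives only. MTCO1P12 (98.7% identical to MT-CO1) stood at 64.7 and 75.3 CPM in MN1-BEND2, 55.3 and 30.3 in MN1-CXXC5, 33.9 and 27.1 in MN1, 80.4 and 28.9 in BEND2 and 31.5 and 25.2 CPM in CTRL cells. Its BEND2 libraries lay far apart and overlapped the libraries of every other line. It was not called in MN1-CXXC5 cells (0.60 ± 0.40, edgeR adjusted p = 0.246), where MT-CO1 was called. It rose in MN1-BEND2 cells (1.32 ± 0.36, edgeR adjusted p = 0.00869), where MT-CO1 did, a call ended without CTRL replicate 2 (1.16, adjusted p = 0.0644) and without MN1-BEND2 replicate 2 (1.20, adjusted p = 0.0504). MTND4P12 (95.7% identical to MT-ND4) had 6.76 and 2.43 CPM in MN1-BEND2 cells and 9.16 and 2.86 CPM in MN1-CXXC5 cells, against 1.72 and 1.88 CPM in CTRL cells. Replicate 1 was far the higher library in both fusion lines. It rose in MN1-CXXC5 cells (1.73 ± 0.52, edgeR adjusted p = 0.0175), a call ended without CTRL replicate 1 (1.67, adjusted p = 0.0733), without CTRL replicate 1 and MN1 replicate 1 together (1.70, adjusted p = 0.0773), without CTRL replicate 2 (1.80, adjusted p = 0.0678) and without MN1-CXXC5 replicate 1 (0.66, adjusted p = 0.334), and was not called in MN1-BEND2 cells (1.31 ± 0.52, edgeR adjusted p = 0.0537). How reads with several matching places were counted is not given in the sources used here, so the levels of a copy and of its mitochondrial gene are uncertain.

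The nuclear genes of mitochondrial gene expression were taken as 8 lists with 87 genes, all of which entered the test. In MN1-BEND2 cells 38 were higher and 26 lower than in CTRL cells, which is 43.7% and 29.9% of the lists, where 26.7% and 25.2% of all genes were. MN1-CXXC5 cells had 29 higher (33.3%, against 19.2% of all genes) and 18 lower (20.7%, against 25.1%). MN1 cells had 28 higher (32.2%, against 21.6%) and 25 lower (28.7%, against 21.4%). BEND2 cells had 13 higher (14.9%, against 6.71%) and 6 lower (6.90%, against 7.47%). Their median log2 fold changes of 0.07, -0.02, -0.01 and 0.02 lay beside the 0.01, -0.03, 0.00 and 0.00 of all genes. Of the 85 calls named in these lists as the largest changes, 63 held in all 19 alternatives (21 of 24 in MN1-BEND2, 17 of 22 in MN1-CXXC5, 19 of 24 in MN1 and 6 of 15 in BEND2 cells). The settings that ended the rest are given with each list, though only in part for MRRF in BEND2 cells.

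The 8 genes of mitochondrial transcription had 1 higher and 3 lower in MN1-BEND2 cells (50% called, against 52% of all genes, median log2 change -0.15) and 0 higher and 1 lower in MN1-CXXC5 cells (12.5% called, against 44.3% of all genes, median log2 change 0.01). Counts were 1 higher and 4 lower in MN1 cells (62.5% called, against 43% of all genes, median log2 change -0.12) and 1 higher and 0 lower in BEND2 cells (12.5% called, against 14.2% of all genes, median log2 change -0.01). POLRMT, the mitochondrial RNA polymerase, stood at 52.3 and 53.0 CPM in MN1-BEND2, 24.7 and 25.7 in MN1-CXXC5, 44.0 and 43.4 in MN1, 41.0 and 40.3 in BEND2 and 33.3 and 37.0 CPM in CTRL cells. It was highest in MN1-BEND2 cells (0.58 ± 0.049, edgeR adjusted p = 9.77e-07) and lowest in MN1-CXXC5 cells (-0.48 ± 0.056, edgeR adjusted p = 2.95e-05), with no overlap between lines. With offsets for GC content and length these became 0.22 in MN1-BEND2 and 0.056 in MN1-CXXC5 cells, so the direction in MN1-CXXC5 cells flips. It was also called higher in MN1 cells (0.31 ± 0.051, edgeR adjusted p = 0.000385) and in BEND2 cells (0.21 ± 0.05, edgeR adjusted p = 0.0173), where the call ended with DESeq2 (0.21, adjusted p = 0.192), with the GC content and length offsets (0.02, adjusted p = 0.913), without BEND2 replicate 1 (0.20, adjusted p = 0.127), without BEND2 replicate 2 (0.22, adjusted p = 0.0651), without CTRL replicate 1 (0.14, adjusted p = 0.138) and without CTRL replicate 1 and MN1 replicate 1 together (0.14, adjusted p = 0.155). TFAM, which binds and bends mitochondrial DNA at its promoters, stood at 189.9 and 189.7 CPM in MN1-BEND2, 274 and 278 in MN1-CXXC5, 243 and 242 in MN1, 257 and 258 in BEND2 and 274 and 271 CPM in CTRL cells. It fell in MN1-BEND2 cells (-0.52 ± 0.028, edgeR adjusted p = 2.54e-08) and in MN1 cells (-0.17 ± 0.028, edgeR adjusted p = 0.00046, or -0.08 with the offsets) but was not called in MN1-CXXC5 cells (0.02 ± 0.028, edgeR adjusted p = 0.552). MTERF1 and MTERF2 belong to a family of proteins that bind mitochondrial DNA, and MTERF2 fell in MN1-BEND2 cells (-0.38 ± 0.076, edgeR adjusted p = 0.00118). The fall of MTERF1 in MN1 cells (-0.29 ± 0.081, edgeR adjusted p = 0.0113) ended with DESeq2 (-0.29, adjusted p = 0.128), with the GC content and length offsets (-0.20, adjusted p = 0.0747), without CTRL replicate 1 and MN1 replicate 1 together (-0.30, adjusted p = 0.0776), without CTRL replicate 2 (-0.23, adjusted p = 0.104) and without MN1 replicate 1 (-0.24, adjusted p = 0.0904). That of the initiation factor TFB2M in MN1 cells (-0.34 ± 0.10, edgeR adjusted p = 0.0167) ended with DESeq2 (-0.34, adjusted p = 0.108), without CTRL replicate 1 (-0.29, adjusted p = 0.0868), without CTRL replicate 1 and MN1 replicate 1 together (-0.26, adjusted p = 0.236) and without MN1 replicate 1 (-0.30, adjusted p = 0.0947). The elongation factor TEFM was called in no line without the block (range -0.17 to -0.00).

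The 16 genes for processing and transfer RNA modification had 8 higher and 3 lower in MN1-BEND2 cells (68.8% called, against 52% of all genes, median log2 change 0.19) and 6 higher and 3 lower in MN1-CXXC5 cells (56.2% called, against 44.3% of all genes, median log2 change -0.08). Counts were 8 higher and 3 lower in MN1 cells (68.8% called, against 43% of all genes, median log2 change 0.12) and 6 higher and 0 lower in BEND2 cells (37.5% called, against 14.2% of all genes, median log2 change 0.11). In BEND2 cells all 6 called genes were higher, which is 37.5% of the list, where 6.71% of all genes were called higher. ELAC2, the enzyme that cuts behind transfer RNAs, stood at 139 and 136 CPM in MN1-BEND2, 121 and 120.1 in MN1-CXXC5, 134 and 131 in MN1, 106 and 111 in BEND2 and 84.6 and 85.7 CPM in CTRL cells. CTRL lay below all construct libraries. The other genes named here are PRORP (KIAA0391 in the table) and HSD17B10, both parts of the enzyme that cuts before transfer RNAs, and TRMU, GTPBP3 and NSUN2, which modify transfer RNA bases. The largest called changes in MN1-BEND2 cells were ELAC2 (0.69, adjusted p = 1.13e-08), TRMU (0.58, adjusted p = 6.06e-07) and NSUN2 (0.47, adjusted p = 2.06e-07). MN1-CXXC5 cells had GTPBP3 (-0.56, adjusted p = 1.91e-06), PRORP (0.50, adjusted p = 0.00412) and ELAC2 (0.50, adjusted p = 5.19e-07). MN1 cells had ELAC2 (0.64, adjusted p = 1.04e-07), HSD17B10 (0.48, adjusted p = 9.87e-07) and PRORP (0.47, adjusted p = 0.00589). BEND2 cells had ELAC2 (0.35, adjusted p = 0.000192), NSUN2 (0.23, adjusted p = 0.00121) and TRMU (0.23, adjusted p = 0.00876). The call of TRMU in BEND2 cells ended with DESeq2 (0.23, adjusted p = 0.0813), with the GC content and length offsets (0.09, adjusted p = 0.282), without BEND2 replicate 2 (0.17, adjusted p = 0.0627) and without CTRL replicate 2 (0.22, adjusted p = 0.0596). That of PRORP in MN1 cells ended without CTRL replicate 1 and MN1 replicate 1 together (0.44, adjusted p = 0.0578), without CTRL replicate 2 (0.38, adjusted p = 0.0601) and without MN1 replicate 1 (0.35, adjusted p = 0.0674).

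The 12 genes of messenger RNA stability and translation activation had 7 higher and 3 lower in MN1-BEND2 cells (83.3% called, against 52% of all genes, median log2 change 0.25) and 6 higher and 2 lower in MN1-CXXC5 cells (66.7% called, against 44.3% of all genes, median log2 change 0.08). Counts were 6 higher and 3 lower in MN1 cells (75% called, against 43% of all genes, median log2 change 0.06) and 1 higher and 1 lower in BEND2 cells (16.7% called, against 14.2% of all genes, median log2 change 0.05). LRPPRC and SLIRP form the complex that stabilises mitochondrial messenger RNAs. LRPPRC stood at 385 and 397 CPM in MN1-BEND2, 432 and 435 in MN1-CXXC5, 318 and 326 in MN1, 338 and 352 in BEND2 and 323 and 334 CPM in CTRL cells. LRPPRC rose in MN1-CXXC5 cells (0.40 ± 0.034, edgeR adjusted p = 2.35e-06) and MN1-BEND2 cells (0.25 ± 0.033, edgeR adjusted p = 5.36e-05) but was not called in MN1 cells (-0.03 ± 0.034, edgeR adjusted p = 0.524). FASTK, FASTKD2, TBRG4 and FASTKD5 belong to a family of proteins that act on mitochondrial RNA, and GRSF1 binds it in granules. Among the calls, MN1-BEND2 cells had the largest changes in SLIRP (0.72, adjusted p = 5.21e-08), TBRG4 (0.40, adjusted p = 2.03e-05) and FASTKD5 (0.39, adjusted p = 2.26e-05). Those in MN1-CXXC5 cells were FASTK (-0.79, adjusted p = 2.96e-06), GRSF1 (0.43, adjusted p = 5.1e-06) and TBRG4 (-0.42, adjusted p = 5.34e-05). TBRG4 thus rose in MN1-BEND2 cells and fell in MN1-CXXC5 cells. Those in MN1 cells were SLIRP (0.68, adjusted p = 3.04e-07), FASTK (0.48, adjusted p = 4.25e-05) and FASTKD5 (0.35, adjusted p = 0.000105). In BEND2 cells the called genes were SLIRP (0.38, adjusted p = 0.00037) and FASTKD2 (-0.20, adjusted p = 0.0214). The call of FASTKD2 there ended with DESeq2 (-0.21, adjusted p = 0.133), with the GC content and length offsets (-0.13, adjusted p = 0.121), without BEND2 replicate 1 (-0.24, adjusted p = 0.063), without BEND2 replicate 2 (-0.17, adjusted p = 0.131) and without CTRL replicate 2 (-0.15, adjusted p = 0.179).

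The 6 genes of mitochondrial RNA decay had 3 higher and 1 lower in MN1-BEND2 cells (66.7% called, against 52% of all genes, median log2 change 0.17) and 3 higher and 1 lower in MN1-CXXC5 cells (66.7% called, against 44.3% of all genes, median log2 change 0.16). Counts were 2 higher and 2 lower in MN1 cells (66.7% called, against 43% of all genes, median log2 change -0.02) and 0 higher and 1 lower in BEND2 cells (16.7% called, against 14.2% of all genes, median log2 change -0.01). REXO2, which degrades short RNA fragments, stood at 62.6 and 61.3 CPM in MN1-BEND2, 46.9 and 45.0 in MN1-CXXC5, 41.4 and 38.3 in MN1, 34.6 and 37.4 in BEND2 and 33.2 and 32.1 CPM in CTRL cells. It was highest in MN1-BEND2 cells, then in MN1-CXXC5 cells. PNPT1 is the exoribonuclease of the degradosome, SUPV3L1 its helicase, and ANGEL2 a phosphatase of RNA ends. For MN1-BEND2 cells the largest called changes were REXO2 (0.92, adjusted p = 2.74e-08), ANGEL2 (-0.71, adjusted p = 8.94e-08) and PNPT1 (0.44, adjusted p = 3.99e-07). For MN1-CXXC5 cells they were REXO2 (0.49, adjusted p = 1.82e-05), SUPV3L1 (0.40, adjusted p = 9.58e-06) and PNPT1 (0.26, adjusted p = 5.94e-05). For MN1 cells they were ANGEL2 (-0.41, adjusted p = 1.66e-05), REXO2 (0.29, adjusted p = 0.00114) and SUPV3L1 (0.26, adjusted p = 0.000306). For BEND2 cells the single call was ANGEL2 (-0.20, adjusted p = 0.0118), which ended with DESeq2 (-0.20, adjusted p = 0.0615), with the GC content and length offsets (-0.14, adjusted p = 0.0613), without BEND2 replicate 1 (-0.20, adjusted p = 0.0717), without BEND2 replicate 2 (-0.19, adjusted p = 0.0696), without CTRL replicate 1 (-0.13, adjusted p = 0.0958) and without CTRL replicate 1 and MN1 replicate 1 together (-0.13, adjusted p = 0.102). ANGEL2 was the largest fall of this list in MN1-BEND2, MN1 and BEND2 cells. In MN1-CXXC5 cells ANGEL2 stood at 88.1 and 87.5 CPM, also below the 106 and 96.4 CPM of CTRL cells.

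The 14 genes of ribosomal RNA modification and ribosome assembly had 6 higher and 2 lower in MN1-BEND2 cells (57.1% called, against 52% of all genes, median log2 change 0.22) and 3 higher and 4 lower in MN1-CXXC5 cells (50% called, against 44.3% of all genes, median log2 change -0.13). Counts were 2 higher and 2 lower in MN1 cells (28.6% called, against 43% of all genes, median log2 change 0.05) and 0 higher and 1 lower in BEND2 cells (7.14% called, against 14.2% of all genes, median log2 change -0.01). NOA1, MTG1 and MTG2 are GTPases of ribosome assembly, DHX30 and DDX28 are RNA helicases, ERAL1 binds the small ribosomal RNA and NSUN4 methylates it. Called changes were largest in MN1-BEND2 cells for NOA1 (0.67, adjusted p = 5.98e-07), DHX30 (0.53, adjusted p = 2.41e-07) and MTG1 (0.38, adjusted p = 0.00499). In MN1-CXXC5 cells they were DDX28 (-0.40, adjusted p = 0.00187), MTG2 (-0.39, adjusted p = 2.18e-05) and ERAL1 (-0.29, adjusted p = 0.000309). In MN1 cells they were MTG1 (0.43, adjusted p = 0.00357), DHX30 (0.37, adjusted p = 1.13e-05) and NSUN4 (-0.30, adjusted p = 0.000169). NSUN4 was the single call in BEND2 cells (-0.15 ± 0.042, edgeR adjusted p = 0.0322), which ended with DESeq2 (-0.16, adjusted p = 0.273), with the GC content and length offsets (-0.13, adjusted p = 0.0678), with library totals (-0.14, adjusted p = 0.0518), with no filter (-0.14, adjusted p = 0.0727), without BEND2 replicate 1 (-0.19, adjusted p = 0.0779), without BEND2 replicate 2 (-0.13, adjusted p = 0.168), without CTRL replicate 1 (-0.14, adjusted p = 0.138), without CTRL replicate 1 and MN1 replicate 1 together (-0.14, adjusted p = 0.134) and without CTRL replicate 2 (-0.16, adjusted p = 0.105). The MTG1 call ended with DESeq2 (0.38, adjusted p = 0.0929) and with the GC content and length offsets (0.14, adjusted p = 0.266) in MN1-BEND2 cells, and ended with DESeq2 (0.43, adjusted p = 0.0575) in MN1 cells. In MN1-CXXC5 cells the DDX28 call ended with DESeq2 (-0.38, adjusted p = 0.0537) and with the GC content and length offsets (-0.09, adjusted p = 0.451). There the MTG2 call ended with the GC content and length offsets (-0.13, adjusted p = 0.0558) and the ERAL1 call ended with the GC content and length offsets (-0.09, adjusted p = 0.176).

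The 10 translation factors had 3 higher and 5 lower in MN1-BEND2 cells (80% called, against 52% of all genes, median log2 change -0.11) and 2 higher and 1 lower in MN1-CXXC5 cells (30% called, against 44.3% of all genes, median log2 change 0.02). Counts were 4 higher and 4 lower in MN1 cells (80% called, against 43% of all genes, median log2 change -0.07) and 2 higher and 1 lower in BEND2 cells (30% called, against 14.2% of all genes, median log2 change -0.07). TUFM, TSFM and GFM2 serve elongation and ribosome recycling, MTIF2 initiation, MTRF1 and MTRF1L are release factors, MRRF is the recycling factor and OXA1L inserts new proteins into the inner membrane. By size the called changes in MN1-BEND2 cells were led by TUFM (0.59, adjusted p = 1.83e-08), MTRF1 (-0.29, adjusted p = 0.00256) and MTRF1L (-0.26, adjusted p = 0.00143). By size those in MN1-CXXC5 cells were led by TSFM (0.39, adjusted p = 0.00022), GFM2 (0.38, adjusted p = 1.2e-05) and OXA1L (-0.29, adjusted p = 0.000143). MN1 cells were led by TUFM (0.47, adjusted p = 4.35e-07), MTRF1 (-0.44, adjusted p = 0.000264) and MTIF2 (-0.40, adjusted p = 0.000231). BEND2 cells were led by TSFM (0.25, adjusted p = 0.0149), TUFM (0.20, adjusted p = 0.00188) and MRRF (-0.13, adjusted p = 0.0447). TUFM was called higher in MN1-BEND2, MN1 and BEND2 cells. The MTRF1 call in MN1-BEND2 cells ended with the GC content and length offsets (-0.12, adjusted p = 0.178). The BEND2 call of TSFM ended with DESeq2 (0.24, adjusted p = 0.167), without BEND2 replicate 1 (0.16, adjusted p = 0.235), without CTRL replicate 1 (0.23, adjusted p = 0.0821), without CTRL replicate 1 and MN1 replicate 1 together (0.24, adjusted p = 0.0902) and without CTRL replicate 2 (0.27, adjusted p = 0.0589). That of MRRF in BEND2 cells ended in 16 of 19 alternatives, among them without BEND2 replicate 1 (-0.11), without BEND2 replicate 2 (-0.14), without CTRL replicate 1 (-0.14) and without CTRL replicate 2 (-0.11).

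The 11 genes of mitochondrial DNA replication and upkeep had 6 higher and 4 lower in MN1-BEND2 cells (90.9% called, against 52% of all genes, median log2 change 0.23) and 5 higher and 2 lower in MN1-CXXC5 cells (63.6% called, against 44.3% of all genes, median log2 change 0.17). Counts were 3 higher and 4 lower in MN1 cells (63.6% called, against 43% of all genes, median log2 change 0.05) and 2 higher and 2 lower in BEND2 cells (36.4% called, against 14.2% of all genes, median log2 change 0.06). POLG and POLG2 are the catalytic and accessory subunits of the mitochondrial DNA polymerase, PRIMPOL is a primase, LIG3 a ligase, and MGME1 and DNA2 are nucleases. The changes called in MN1-BEND2 cells were largest for PRIMPOL (-0.74, adjusted p = 8.91e-06), POLG (0.67, adjusted p = 1.85e-08) and MGME1 (-0.52, adjusted p = 8.53e-07). In MN1-CXXC5 cells the largest were LIG3 (0.32, adjusted p = 2.67e-05), POLG2 (0.30, adjusted p = 0.00301) and DNA2 (0.30, adjusted p = 5.56e-05). In MN1 cells the largest were PRIMPOL (-0.57, adjusted p = 0.000137), POLG (0.52, adjusted p = 5.5e-07) and LIG3 (0.52, adjusted p = 5.91e-07). The 3 largest in BEND2 cells were PRIMPOL (-0.31, adjusted p = 0.0208), MGME1 (-0.27, adjusted p = 0.002) and POLG (0.19, adjusted p = 0.0058). PRIMPOL was called lower and POLG higher in MN1-BEND2, MN1 and BEND2 cells. Their levels in MN1-CXXC5 cells lay on the same sides of CTRL. PRIMPOL stood there at 22.6 and 27.3 CPM, against 31.3 and 29.3 CPM in CTRL cells. POLG stood there at 70.5 and 72.8 CPM, against 62.5 and 63.9 CPM in CTRL cells. With the GC content and length offsets POLG was higher by 0.44 in MN1-BEND2 cells. In BEND2 cells the PRIMPOL call ended with DESeq2 (-0.31, adjusted p = 0.108), with the GC content and length offsets (-0.25, adjusted p = 0.0632), without BEND2 replicate 1 (-0.25, adjusted p = 0.174), without BEND2 replicate 2 (-0.35, adjusted p = 0.0553), without CTRL replicate 1 (-0.26, adjusted p = 0.125), without CTRL replicate 1 and MN1 replicate 1 together (-0.26, adjusted p = 0.146) and without CTRL replicate 2 (-0.35, adjusted p = 0.0538). The POLG call there ended with DESeq2 (0.19, adjusted p = 0.0895), with the GC content and length offsets (0.09, adjusted p = 0.135) and without CTRL replicate 1 and MN1 replicate 1 together (0.17, adjusted p = 0.057).

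The 10 nuclear regulators had 4 higher and 5 lower in MN1-BEND2 cells (90% called, against 52% of all genes, median log2 change -0.05) and 4 higher and 4 lower in MN1-CXXC5 cells (80% called, against 44.3% of all genes, median log2 change -0.02). Counts were 2 higher and 3 lower in MN1 cells (50% called, against 43% of all genes, median log2 change -0.05) and 1 higher and 0 lower in BEND2 cells (10% called, against 14.2% of all genes, median log2 change 0.02). PPARGC1A, PPARGC1B and PPRC1 are coactivators of mitochondrial genes, ESRRA and NRF1 are transcription factors that work with them, and TFEB is better known for lysosome genes. Largest among the calls in MN1-BEND2 cells were PPARGC1A (-0.63, adjusted p = 6.07e-05), PPARGC1B (0.51, adjusted p = 2.88e-06) and ESRRA (0.41, adjusted p = 0.00147). Largest in MN1-CXXC5 cells were ESRRA (-0.87, adjusted p = 2.35e-05), TFEB (-0.69, adjusted p = 0.00899) and NRF1 (-0.51, adjusted p = 0.000221). Largest in MN1 cells were NRF1 (-0.34, adjusted p = 0.00311), PPRC1 (0.25, adjusted p = 0.000355) and PPARGC1B (-0.19, adjusted p = 0.0123). PPRC1 was the single call in BEND2 cells (0.23 ± 0.039, edgeR adjusted p = 0.00341). ESRRA was called higher in MN1-BEND2 cells and lower in MN1-CXXC5 cells. PPARGC1B was called higher in MN1-BEND2 cells and lower in MN1 cells. The ESRRA call in MN1-BEND2 cells ended with the GC content and length offsets (0.11, adjusted p = 0.322). The TFEB call in MN1-CXXC5 cells ended with DESeq2 (-0.68, adjusted p = 0.105), without CTRL replicate 1 (-0.50, adjusted p = 0.0754), without CTRL replicate 1 and MN1 replicate 1 together (-0.47, adjusted p = 0.0986) and without MN1-CXXC5 replicate 1 (-0.63, adjusted p = 0.0556). The PPARGC1B call in MN1 cells ended with DESeq2 (-0.19, adjusted p = 0.141), without CTRL replicate 1 (-0.16, adjusted p = 0.0762) and without MN1 replicate 2 (-0.13, adjusted p = 0.158).

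**Figure D4:**
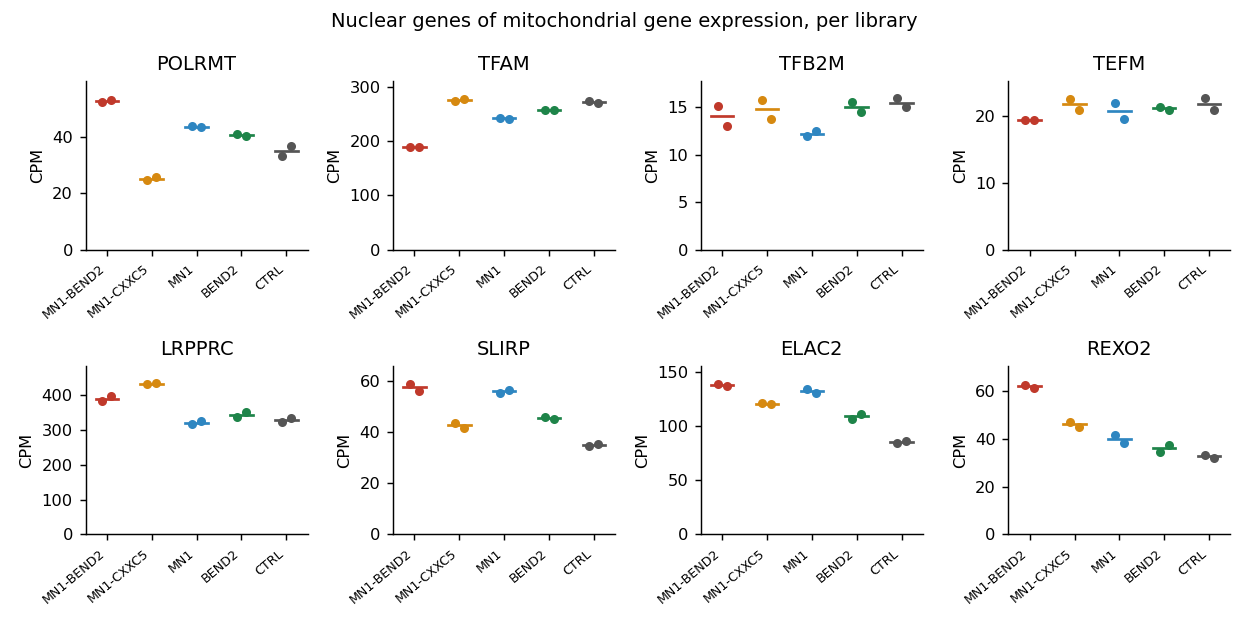
CPM of 8 nuclear genes of mitochondrial transcription (POLRMT, TFAM, TFB2M, TEFM), messenger RNA stability (LRPPRC, SLIRP), processing (ELAC2) and decay (REXO2), a point for each library and a bar at the mean of each line, all axes from 0. POLRMT is highest in MN1-BEND2 cells and lowest in MN1-CXXC5 cells (52.3 and 53.0 CPM against 24.7 and 25.7 CPM), and LRPPRC is highest in MN1-CXXC5 cells.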

How the data were processed

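The authors deposited a table of whole-number read counts per gene, without normalization. The tools named in the submitters' processing notes are HISAT2, SAMtools 1.0.1 together with featureCounts 2.0.0, and the build is GRCh38. The annotation release, strand setting and handling of multiply matching reads were not given in the sources used here. Columns were matched to samples by name, with 0 columns unmatched. The 58261 lines gave 58216 identifiers after summing 45 with 2 lines, and positions came from GENCODE v29.

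Counts were fitted with edgeR 4.0.16 in R 4.3.3 (glmQLFit, TMM, filterByExpr by group, group as the only factor, all 10 libraries, 5 residual degrees of freedom, common biological coefficient of variation 0.040), for 8 comparisons. Levels are CPM with TMM factors, and SE is that of a log2 fold change. The 2 libraries of a line differed beyond counting noise (chi-square per degree of freedom 2.00 to 3.23 over genes). The settings tried were DESeq2 1.42.0 and its size factors, library totals, scaling without the mitochondrially encoded genes, no filter, only the groups compared, offsets for GC content and length (splines fitted on nuclear genes), the replicate number as a block and each library left out. Leaving out CTRL replicate 1 and MN1 replicate 1 together was chosen after seeing the data. The fit was also run on simulated counts with known changes in MN1-CXXC5 only, drawn with the common spread for all genes. These counts held no shared replicate differences, so that run does not bear on them.

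The numbers were taken to pair libraries because the differences of replicate 2 from replicate 1 correlated between all 10 pairs of lines (0.205 to 0.399 over 10792 genes). That the labels mean this is not stated.

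The members and the 13 lists (124 genes, all matched) were chosen with earlier results of these data known. Named were all protein genes and ribosomal RNAs, transfer RNA genes and nuclear copies averaging at least 1 CPM, up to 3 called genes with the largest change for each list and comparison with CTRL, and POLRMT, TFAM, TFB2M, TEFM and LRPPRC whatever their values. The transfer RNA genes below 1 CPM are named for completeness.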

Additional observations from a re-analysis of the deposited data

How the results depend on the processing

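Leaving out 1 library in turn, the members called ranged from 7 to 14 in MN1-BEND2 cells, 11 to 20 in MN1-CXXC5 cells, 6 to 11 in MN1 cells and 0 to 3 in BEND2 cells against CTRL, and over the other comparisons from 9 to 16 (MN1-BEND2 against MN1), 7 to 11 (against BEND2), 11 to 17 (MN1-CXXC5 against MN1) and 7 to 18 (MN1-BEND2 against MN1-CXXC5). Genes called ranged from 7999 to 9467, 6475 to 8008, 6286 to 7784, 1064 to 2526, 6891 to 8483, 5942 to 7944, 7472 to 8800 and 9273 to 10753 in the same order, and nuclear genes of mitochondrial gene expression from 53 to 65, 42 to 50, 41 to 50, 8 to 19, 31 to 43, 39 to 54, 49 to 57 and 59 to 68. The share of counts on the members ranged from 5.52% to 5.79%, 5.58% to 5.91%, 4.56% to 5.14%, 4.86% to 5.11% and 4.59% to 4.96% in MN1-BEND2, MN1-CXXC5, MN1, BEND2 and CTRL cells. Relative to the total without the members, the mean was 5.99%, 6.10%, 5.10%, 5.25% and 5.02% in the same order.

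DESeq2 called 6 members in MN1-BEND2 cells against CTRL, and 4967, 4862 and 838 genes in MN1-CXXC5, MN1 and BEND2 cells, 5333 for MN1-BEND2 against MN1 and 4819 against BEND2. It called 6 of the 87 nuclear genes in BEND2 cells, 22 for MN1-BEND2 against MN1 and 30 against BEND2. Without a filter, members called were 12 in MN1 cells, 10 in BEND2 cells and 22 between the fusions. With only the groups compared they were 5 in BEND2 cells and 17 between the fusions, and with library totals 2 in BEND2 cells. GC content and length offsets gave 7 members between the fusions, 1702 genes and 12 nuclear genes in BEND2 cells, and 35 nuclear genes for MN1-CXXC5 against MN1. They reversed POLRMT in MN1-CXXC5 cells (0.056, against -0.48) and MT-ND4L between the fusions (0.0067, against -0.12), the 2 reversals among the named genes. The members are short and 17 lay below the lengths the offsets were fitted on. Without CTRL replicate 1 and MN1 replicate 1, 1239 genes, 2 members and 10 nuclear genes were called in BEND2 cells and 20 members between the fusions. CTRL replicate 1 and MN1 replicate 1 belong to neither fusion line. They enter the comparison of the fusions only through the filter, scaling and spread that all lines share. The cause was not tested.

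The replicate block called 4155 genes, 11 members and 33 nuclear genes in BEND2 cells, 13 members in MN1 cells and 21 between the fusions. It ended no call of a member against CTRL. Among the 5 nuclear genes named for transcription and stability it added TEFM in MN1-BEND2 cells (adjusted p = 0.0395) and TFAM (0.00962) and LRPPRC (0.024) in BEND2 cells.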

Other observations

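The list of RNAs that are not polyadenylated or stay in the nucleus held 10 genes. RN7SK, RN7SL1, RMRP, RPPH1 and SCARNA2 had 0 counts in every library, and TERC and RNU4-2 lay at or below 0.156 CPM. RN7SL2, a copy of the signal recognition particle RNA, stood at 43.8 and 43.0 CPM in MN1-BEND2, 12.5 and 11.1 in MN1-CXXC5, 46.8 and 44.8 in MN1, 45.9 and 40.8 in BEND2 and 40.8 and 39.9 CPM in CTRL cells, and fell in MN1-CXXC5 cells (-1.77 ± 0.075, edgeR adjusted p = 1.19e-08). MALAT1, a nuclear long RNA, stood at 102 and 108 CPM in MN1-BEND2, 193 and 207 in MN1-CXXC5, 104 and 112 in MN1, 156 and 162 in BEND2 and 179 and 181 CPM in CTRL cells, with falls in MN1-BEND2 cells (-0.78 ± 0.046, edgeR adjusted p = 5.32e-08) and MN1 cells (-0.74 ± 0.047, edgeR adjusted p = 2.97e-07). NEAT1, the RNA of nuclear paraspeckles, stood at 292 and 289 CPM in MN1-BEND2, 322 and 338 in MN1-CXXC5, 167 and 169 in MN1, 321 and 327 in BEND2 and 375 and 383 CPM in CTRL cells, lowest in MN1 cells (-1.17 ± 0.033, edgeR adjusted p = 5.17e-10). NEAT1 was called lower in every construct line, and MALAT1 also in BEND2 cells. In MN1-CXXC5 cells MALAT1 was called higher. Near-identical copies make RN7SL2 uncertain.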
